A study of Drosophila melanogaster with 3 samples.

Results

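Osiris genes encode a family of insect membrane proteins, most of them in a tandem cluster on arm 3R of Drosophila melanogaster. The 10 genes described here are Osi2, Osi6, Osi7, Osi9, Osi14, Osi15, Osi17, Osi18, Osi19 and Osi20. A peak was counted for a gene if its summit lay inside the annotated span of the gene, or closer to one of the gene's ends than to those of every other protein-coding gene. By this rule the 10 genes held 40 of the 34718 peaks in the list. All 10 had at least 1 peak, as did 71.9% of all 13922 protein-coding genes on the annotated arms.

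The cells were wild-type abdominal epidermis from pupae collected between 38 and 45 h after puparium formation, with 50 pupae in each of 3 replicates and the tissue left on the cuticle after the internal organs had been taken out. Open chromatin was measured by ATAC-seq, an assay that tags accessible DNA with sequencing adapters by means of a transposase. There was 1 group, and the authors' values came as a single peak list for the 3 replicates together. No value therefore has a replicate error, and no difference below was tested. Coordinates are 1-based on dm6.

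Osiris proteins are found in cells that are secreting cuticle, among them epidermis and trachea, and are linked to endosomal membranes. In the fly, Osi9, Osi15 and Osi19 have been linked to maturation of the tracheal tubes, and Osi23, also called gore-tex, to the pores in the cuticle of olfactory hairs. The cluster is also known for the Triplo-lethal locus, where an extra copy or a missing copy of the region kills the animal. At the collected stages the abdominal epidermis is building the adult body wall.

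The tissue label was compared with open gene ends at marker genes. At 9 of 12 epidermal genes there was a summit within 500 bp of an end, including grh, ovo, kkv and shg, and the others, crb, m and sn, had peaks elsewhere. Such a summit was found at 65.6% of all protein-coding genes, so this share, 75.0%, was not far from the background. The same was found at all 6 muscle genes, 4 of 5 hemocyte genes, 4 of 5 bristle genes, and 3 of 5 genes in each of the tracheal, fat body, oenocyte and neuronal lists. The median pileup of the assigned peaks was 172 reads for the epidermal list and 151 for the oenocyte list. It was 140 for the tracheal, 133.5 for the bristle, 132.5 for the fat body, 129.5 for the muscle, 114 for the neuronal and 111 for the hemocyte list. The ratio of reads to local background (fold enrichment) gave another order. Its median was 2.29 for fat body, 2.23 for bristle, 1.98 for tracheal and 1.96 for epidermal peaks. It was 1.89 for neuronal, 1.87 for hemocyte and muscle, and 1.86 for oenocyte peaks. Of these lists the epidermal one had the highest median background, 87.5 reads. Peaks were pooled over genes, so genes with many peaks weighed most in these medians. The gene svp alone gave 24 of the 27 oenocyte peaks, and srp gave 15 of the 25 hemocyte peaks. Of the 60 muscle peaks Mef2 gave 22 and sls 21. Of the 77 tracheal peaks knrl gave 33, and of the 136 epidermal peaks f gave 33. Since tracheal cells also use Osiris genes, their share in the peaks below was not tested. In a tissue sample, a change in the number of cells with an open site and a change in openness per cell cannot be told apart.

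The Osiris cluster was one of the densest stretches of arm 3R by number of peak summits. From the first base of Osi1 to the last base of Osi20 (3R:6173549–6341424, 167.9 kb) there were 85 summits, or 5.06 per 10 kb, against 2.59 per 10 kb over the arm. The counting interval of the stretch was 4.04 to 6.26 (exact 95% Poisson). Of 189 other windows of the same length laid along 3R, 1 held more summits per 10 kb and 187 held fewer, and their median was 2.92. The windows next to the stretch had 3.28 below it and 3.51 above it. Up to 3R:4159036 the windows held at most 14 summits each, and many held 0. This nearly empty sequence lowers the density and covered share of the arm and adds to the number of lower windows.

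Peaks covered 24.6% of the stretch, against 11.8% of the arm. The median distance between neighbouring summits was 1321 bp in the stretch and 1723 bp on 3R. The stretch held 28 protein-coding genes, of which 22 belonged to the Osiris family and 6 did not. Of the 189 windows 35 held more genes and 146 held fewer, with a median of 18.

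**Figure D1:**
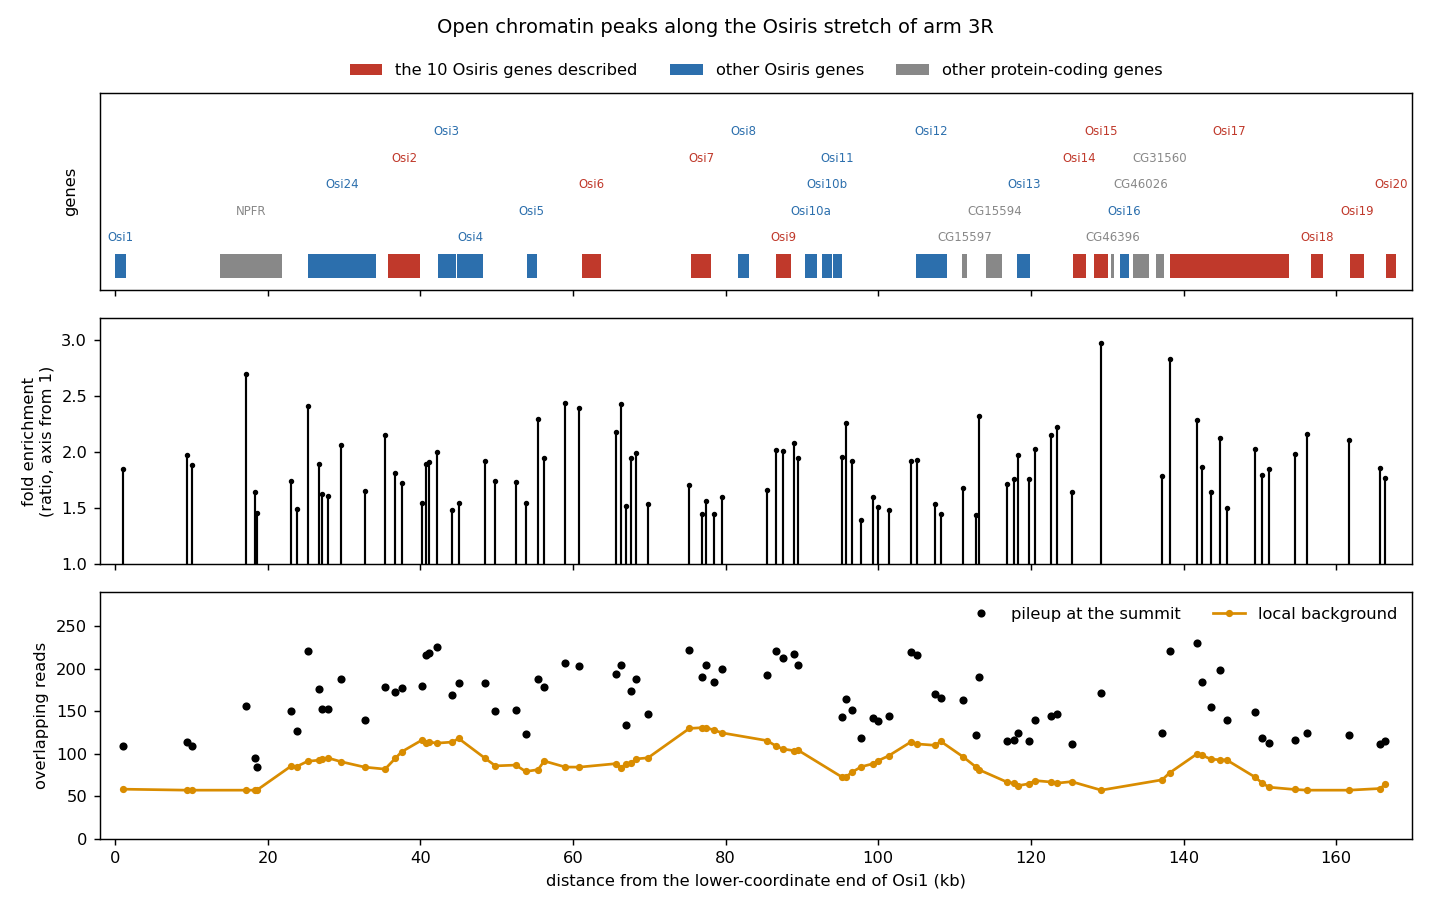
Peaks along the 167.9 kb Osiris stretch, with distance from the lower-coordinate end of Osi1 in kb on the horizontal axis. The top panel shows the genes, the middle panel the deposited fold enrichment of each of the 85 summits, and the bottom panel the recovered pileup (points) and local background (line) in overlapping reads. The background stands highest around Osi7, at 125 to 131 reads, and is lowest, near 57.2 reads, around NPFR and at Osi15, Osi18 and Osi19.

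The openness of each summit can be read from a pair of values. The fold enrichment is the deposited ratio of the reads piled up at the summit to a local background set by the authors' peak caller. The pileup itself, the whole-number count at the summit, was recovered from the deposited fold enrichment and −log10 p. Its unit is called reads here. Whether the caller counted reads, extended reads or fragments is not given in the sources used. Along the cluster the 2 measures gave different orders, because the background was not level. Its median over the stretch was 87.9 reads, against 70.7 on 3R, 66.6 in the window below and 70.8 in the window above. Of the 189 windows on 3R, 7 had a higher median background and 167 a lower one, and those without a peak had no value. The median fold enrichment of the stretch was 1.86, against 1.98 on 3R, and 151 of these windows were higher and 23 lower. By this measure the summits of the stretch were thus weaker than those of most windows.

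**Figure D2:**
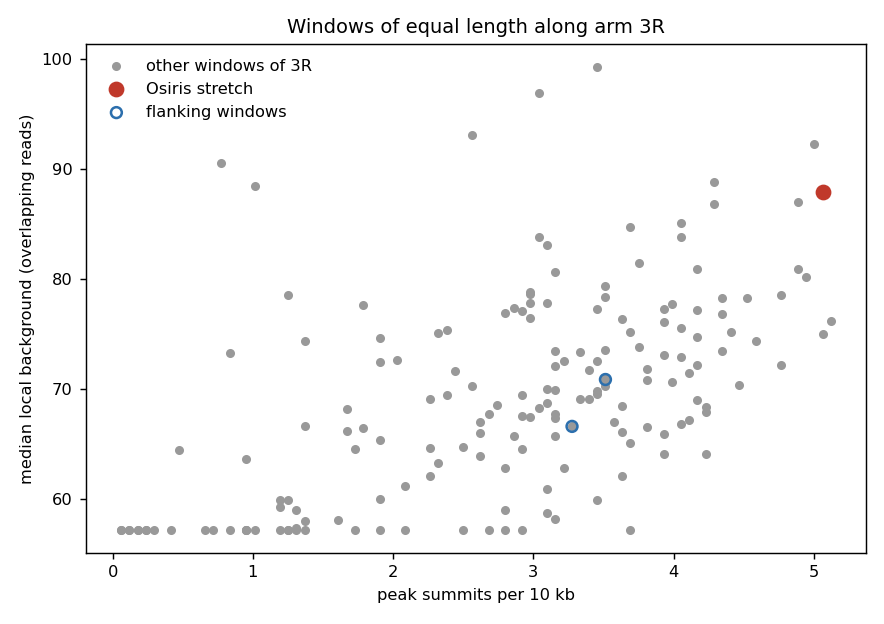
Windows of 167.9 kb along arm 3R, with summits per 10 kb on the horizontal axis and the median local background of their peaks in overlapping reads on the vertical axis. The Osiris stretch (red) stands at 5.06 summits per 10 kb and 87.9 reads, and its flanking windows (blue rings) at 3.28 and 3.51 summits per 10 kb with 66.6 and 70.8 reads. Windows without a peak are not drawn.

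For the 40 peaks of the 10 genes the median pileup was 182.5 reads, against 149 over the list. A pileup above the list median was found at 27 of them (67.5%, against 49.3% of all peaks). The local background was above the list median at 30 of them (75.0%, against 50% of all peaks). Their median fold enrichment was 1.91, against 2.01 over the list, and 15 of the 40 lay above the list median (37.5%, against 49.8%). Pooled over the genes, the peaks thus had many reads over a high background and a fold enrichment a little under the typical one. This did not hold for each gene. Every background at Osi14, Osi15, Osi18, Osi19 and Osi20 was under the list median of 68.1 reads. Their pileups were under 149 as well, save that of Osi15. All summits from Osi2 to Osi9 had a median pileup of 188 reads and a median background of 98.8. From Osi14 to Osi20 these medians were 132.5 and 67.35. The background was at its floor of 57.2 reads at 3 of the 40, against 26.3% of all peaks. The peaks were also wide, with a median of 485 bp against 357 bp.

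**Figure D3:**
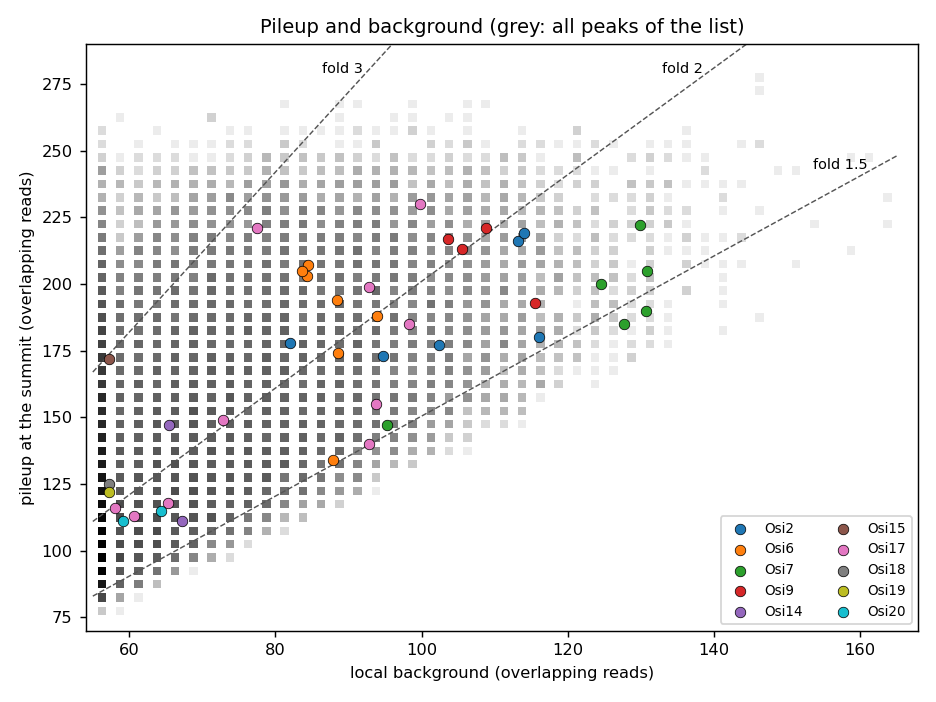
Pileup at the summit against local background, both in overlapping reads, for the 40 peaks (coloured by gene) and all 34718 peaks (grey squares, darker where more peaks fall). Dashed lines join points of equal fold enrichment. Peaks of Osi7 lie to the right at 125 to 131 reads of background, save 1 at 95.2, and those of Osi15, Osi18 and Osi19 at the floor of 57.2.

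Most of the 10 genes had a summit just outside the same end. Without strand in the gene table used here, ends are named by coordinate, and the lower-coordinate end of a gene is the one with the smaller position on the arm. This side was singled out after the values were seen. A summit lay within 500 bp of either end at 9 of the 10 genes, against 65.6% of all protein-coding genes. It lay within 500 bp of the lower-coordinate end at 9 of 10, against 40.2% of all genes, and of the higher-coordinate end at 3 of 10, against 40.2%. All 9 lower-end summits fell outside the gene, between 1 and 465 bp from its end, with a median of 192 bp. Osi15 was the exception at both ends. In a stricter list of the 17359 peaks with the best −log10 q, the lower-coordinate end had a summit at 5 of the 10 genes, against 29.6% of all genes, and either end at the same 5, against 52.5%.

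The other 12 Osiris genes of the cluster were more mixed. A summit lay within 500 bp of the lower-coordinate end at 7 of the 12 and of the higher-coordinate end at 6 of the 12. No test was made of the difference from the 10 genes. A summit outside the gene within 500 bp of the lower-coordinate end was found at 5 of the 12, and at 29.9% of all protein-coding genes.

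**Figure D4:**
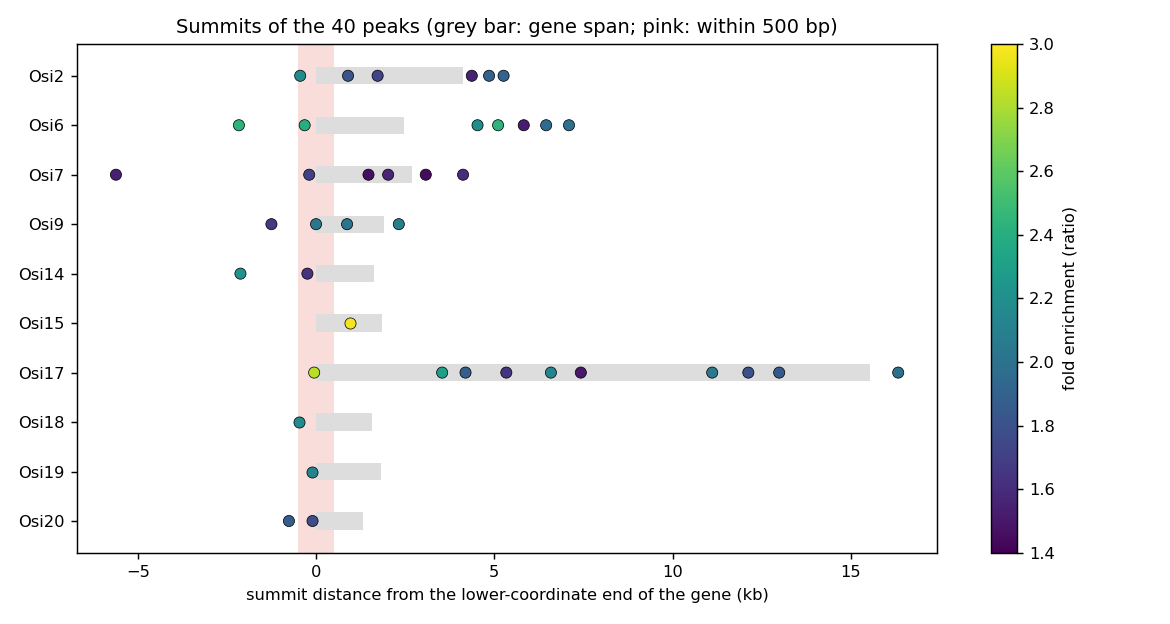
Position of each of the 40 summits relative to the lower-coordinate end of its gene, in kb, coloured by fold enrichment. Grey bars are the gene spans and the pink band marks 500 bp to each side of that end. In 9 of the 10 genes a summit falls in the band, all 9 to the left of the gene, and the only summit of Osi15 lies inside the gene.

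The remaining summits were spread within and around the genes. Of the 40, 12 lay within 500 bp of an end of their own gene. The median fold enrichment of these 12 was 2.05, against 2.28 for all peaks at ends of protein-coding genes. A further 14 lay inside a gene away from its ends, and 14 lay outside it. A summit was found inside 5 of the 10 genes, against 48.1% of all protein-coding genes, and Osi17 alone accounted for 8 of the 14.

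Osi2 (CG1148, 3R:6209373–6213493) had 6 peaks, a number reached or passed by 13.9% of protein-coding genes. The peak at its lower end (3R:6208598–6209363) had a summit 445 bp outside the gene, a fold enrichment of 2.16, a pileup of 178 reads and a background of 82.0. Inside the gene were summits at fold enrichments of 1.82 and 1.72, with 173 and 177 reads. These 3 summits were close in pileup and fell in fold enrichment as the background rose to 102.

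Beyond the higher-coordinate end of Osi2 were 3 more peaks, with summits 248, 733 and 1139 bp out. Their pileups were 180, 216 and 219 reads over backgrounds of 116, 113 and 114, and their fold enrichments 1.55, 1.90 and 1.91. The outermost was the most narrowly assigned of the 40, since it lay 1139 bp from Osi2 and 1200 bp from Osi3. A summit on the other side of the rule was that of Osi10a, which lay 991 bp from Osi9 and 862 bp from Osi10a and so was not counted for Osi9.

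Osi6 (CG1151, 3R:6234708–6237181) had 7 peaks, and none of their summits lay inside the gene. None of its span was covered by a peak, and the interval of 4849 bp between its neighbouring summits, from 3R:6234388 to 3R:6239237, contained the whole gene. On the lower-coordinate side were peaks of 2.44 and 2.39 fold enrichment, with 207 and 203 reads, at 2164 and 320 bp from the end. Beyond the higher-coordinate end a row of 5 summits ran from 2056 to 4621 bp out. Its fold enrichments were 2.18, 2.43, 1.52, 1.95 and 1.99 in order, with 194, 205, 134, 174 and 188 reads. The weakest, with 134 reads, was also the narrowest of the gene at 179 bp.

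Osi7 (CG1153, 3R:6248994–6251683) had 6 peaks. Its highest fold enrichment, 1.70, was the lowest such value among the 10 genes, while 5 of its 6 summits had from 185 to 222 reads. The peak across its lower-coordinate end (3R:6248661–6250094) was the widest of the 40 at 1434 bp, and 1.17% of all peaks in the list were wider. Its summit, 192 bp outside the gene, had 222 reads (95% Poisson interval 194 to 253) over a background of 130, for a fold enrichment of 1.70. More reads were found at 4.27% of all peaks, whereas 77.0% of all peaks had a higher fold enrichment.

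Inside Osi7 the summits had 190 and 205 reads and fold enrichments of 1.45 and 1.56. Beyond its higher-coordinate end they had 185 and 200 reads and fold enrichments of 1.45 and 1.60, at 388 and 1434 bp. The backgrounds of these 5 neighbouring peaks ran from 125 to 131 reads, and 0.285% of all peaks had more background than the highest of them. A sixth peak stood 5613 bp out on the lower-coordinate side, with 147 reads, a background of 95.2 and a fold enrichment of 1.54. Together the peaks covered 84.3% of the gene, and 0.496% of protein-coding genes had a larger share covered.

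Osi9 (CG15592, 3R:6260211–6262105) was open along most of its length. Its 4 peaks covered 88.0% of the gene, and 0.316% of all protein-coding genes had more. The summit nearest to its lower-coordinate end lay 1 bp outside it, in a peak at 3R:6259810–6260553, with 221 reads, a background of 109 and a fold enrichment of 2.02. The summit inside the gene had 213 reads and a fold enrichment of 2.01, in a peak of 1026 bp. The one 427 bp beyond its higher-coordinate end had 217 reads and 2.08, in a peak of 1001 bp. These 3 were close to each other in both measures. The fourth, 1252 bp out on the lower-coordinate side, had 193 reads and a fold enrichment of 1.66.

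Osi14 (CG1155, 3R:6299128–6300738) had 2 peaks, both on its lower-coordinate side. The farther one, at 2121 bp, was broad (992 bp) with 147 reads and a fold enrichment of 2.23. The nearer one, at 243 bp, was weaker, with 111 reads (interval 91.3 to 134) and a fold enrichment of 1.64. As in Osi6, none of the span was covered by a peak.

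Osi15 (CG1157, 3R:6301804–6303653) had a single peak, and it was the highest of the 40 in fold enrichment. It lay inside the gene (3R:6302524–6302894, 371 bp), with its summit 964 bp from the lower-coordinate end and 885 bp from the other. The fold enrichment was 2.97, and 6.66% of all peaks had more. Its pileup of 172 reads (interval 147 to 200) stood over a background at the floor of 57.2. More reads were found at 31.3% of all peaks. On its higher-coordinate side no summit followed for 7981 bp, an interval that holds CG46396, Osi16 and CG46026.

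Osi17 (CG15598, 3R:6311772–6327308) was the longest of the 10 at 15.5 kb and had the most peaks, 10, a number reached or passed by 7.26% of protein-coding genes. Its lower-end peak (3R:6311527–6312438) was the strongest lower-end peak among the 10 genes by fold enrichment, at 2.83 with 221 reads over a background of 77.5 and a summit 53 bp outside the gene. A group of 5 summits followed between 3537 and 7426 bp into the gene. It opened with the largest pileup of the 40, 230 reads (interval 201 to 262), at a fold enrichment of 2.29 over a background of 99.8. The next were at 1.87, 1.65, 2.13 and 1.50, with 185, 155, 199 and 140 reads.

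A second group inside Osi17, between 11.1 and 13.0 kb from the lower-coordinate end, had 149, 118 and 113 reads and fold enrichments of 2.03, 1.79 and 1.85. The last peak, 792 bp beyond the higher-coordinate end, had 116 reads and a fold enrichment of 1.98. The background fell from 99.8 reads at the first summit inside the gene to 58.0 at the last peak. Thus fold enrichments of the second group and last peak, 1.79 to 2.03, lay within those of the first group, 1.50 to 2.29. Their pileups, 113 to 149 reads, were mostly under those of the first group, 140 to 230, with some overlap. Per 10 kb of span and nearest sequence Osi17 had 5.75 peaks, close to the 5.69 of the 10 genes together.

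Osi18 (CG1169, 3R:6330248–6331809), Osi19 (CG15189, 3R:6335362–6337196) and Osi20 (CG15188, 3R:6340095–6341424), at the far end of the cluster, had 1 or 2 peaks each. Of all protein-coding genes 71.9% had at least 1 peak and 43.1% at least 2. The single peak of Osi18 had its summit 465 bp outside the lower-coordinate end, with 125 reads and a fold enrichment of 2.16. The single peak of Osi19 had its summit 104 bp outside the same end, with 122 reads and 2.11. Both backgrounds were at the floor of 57.2. Osi20 had summits 99 and 761 bp outside that end, with 115 and 111 reads and fold enrichments of 1.77 and 1.86. At these 3 genes all summits lay outside the gene on 1 side, and every pileup was under the list median of 149.

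The order of the 10 genes thus depended on the measure. By the fold enrichment of the highest peak it ran Osi15 (2.97), Osi17 (2.83), Osi6 (2.44), Osi14 (2.23), Osi18 and Osi2 (both 2.16), Osi19 (2.11), Osi9 (2.08), Osi20 (1.86) and Osi7 (1.70). By the largest pileup it ran Osi17 (230), Osi7 (222), Osi9 (221), Osi2 (219), Osi6 (207), Osi15 (172), Osi14 (147), Osi18 (125), Osi19 (122) and Osi20 (115). Osi7 thus moved from place 10 to place 2, and Osi15 from place 1 to place 6. Neighbours in the order by pileup had overlapping counting intervals. The intervals of the first 5 genes in that order had a lowest bound of 180, and those of the last 4 a highest bound of 173. This split was read off the same pileups, each the largest of 1 to 10 peaks. The intervals cover counting error only, and the difference was not tested. If every background were at the floor, the lower-end peak of Osi7 would have a ratio of 3.83 in place of 1.70.

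**Figure D5:**
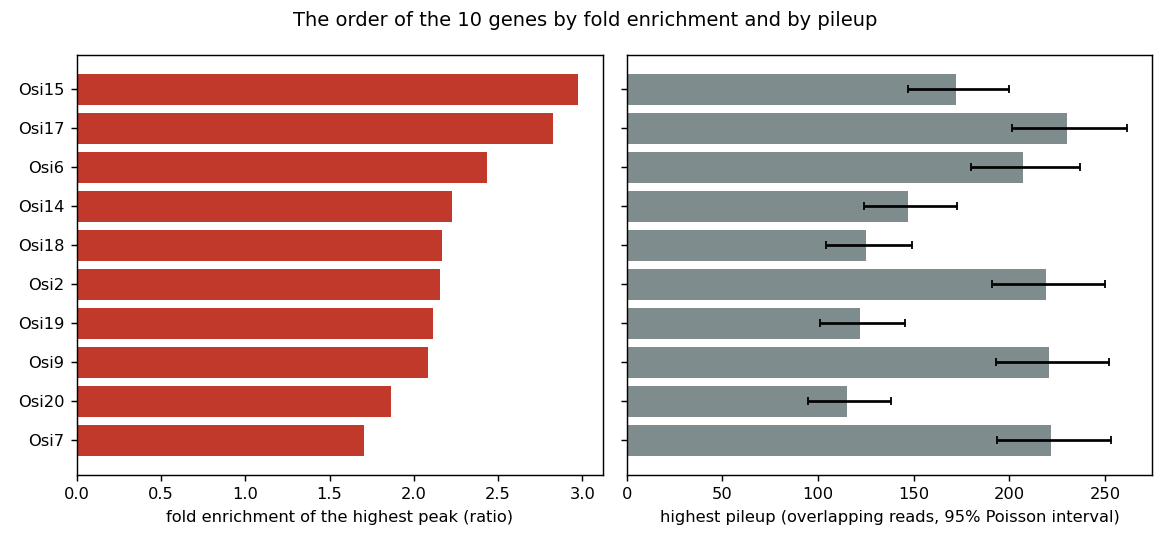
The 10 genes in the order of the fold enrichment of their highest peak (left, bars from 0) and, for the same order, the largest pileup at any of their summits in overlapping reads (right, with 95% Poisson intervals that cover counting error only). Osi7 stands last on the left at 1.70 and has 222 reads on the right, while Osi15 stands first at 2.97 and has 172.

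The other Osiris genes of the stretch had 35 peaks, with a median pileup of 153 reads, a median background of 88.3 and a median fold enrichment of 1.85. The highest were at Osi1, with a peak of 2137 bp at its lower-coordinate end (fold enrichment 3.08, 208 reads), and at Osi24, at its lower-coordinate end (2.41, 221 reads). The highest fold enrichments of the others were 2.30 at Osi5, 2.26 at Osi11, 2.15 at Osi13, 1.95 at Osi10a, 1.93 at Osi12 and 1.92 at Osi4, while the highest peak of Osi3 had 226 reads over a background of 112.5. No peak was assigned to Osi8, Osi10b or Osi16. Osi8 lay whole in a summit-free interval of 5842 bp between Osi7 and Osi9, which are themselves the most covered of the 10 genes, and Osi10a, Osi10b and Osi11 in one of 5698 bp.

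Genes in the stretch that are not of the family had 11 peaks in all. NPFR, the neuropeptide F receptor gene, had 6 of them and its highest was 2.70. CG15594 and CG15597 had 2 each, with highest fold enrichments of 2.32 and 1.68, and CG31560 had 1 at 1.79. CG46396 and CG46026 had none. The nearest gene below the stretch, CG1077, had 4 peaks with a highest of 2.85, and the nearest above, CG17917, had none.

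Summed over each list, the 10 Osiris genes were dense in peaks for their size beside other cuticle genes. They held 5.69 peaks per 10 kb of span and nearest sequence, the other Osiris genes of the stretch 4.97, 10 matched zona pellucida genes of the trichome matrix 4.34, 110 structural cuticle protein genes 3.96, 12 chitin assembly genes 2.77 and all protein-coding genes 2.61. The median pileup was 182.5 reads for the 10 Osiris genes, 158 for the zona pellucida list, 150 for the chitin list and 133 for the cuticle proteins. Median fold enrichments of these lists lay closer together, from 1.82 to 1.94. Genes of the stretch outside the family also varied in density. Per 10 kb, CG15597 had 6.69 peaks, CG31560 5.31, CG15594 4.64 and NPFR 3.76, and CG46396 and CG46026 had 0. The epidermal and tracheal marker lists had 4.73 and 4.56. A high density was thus not particular to the 10 genes. By number per gene the order differed. The median was 3 peaks for the 10 Osiris genes, 12 for the zona pellucida list, 4.5 for the chitin list and 1 for the cuticle proteins. Over all protein-coding genes it was 1. Long genes weigh most in a summed density. In the chitin list 1 gene with its nearest sequence took 155156 bp, against at most 17393 bp among the 10 Osiris genes. These values are descriptions, and no list was tested against another.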

How the data were processed

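The submitters' processing notes name the tools BWA, SAMtools, Picard and MACS2 and the build dm6. No version, setting or way of merging the 3 replicates is given in the sources used here. In the deposited list the fold enrichment is a ratio of pileup to local background, both plus 1. Each deposited summit also has a −log10 p and a −log10 q. The deposited score follows the −log10 q and was not used. Depth per replicate is unknown.

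From the ratio and the −log10 p, taken as a Poisson tail, the pileup and background of each summit were solved for. A whole number was found for all 34718 peaks within 0.002 on the −log10 p scale. The background had a floor of 57.2 reads. On simulated data the pileup was recovered at 100% of 2000 summits, and the assignment was right for 100% of 300 genes. Intervals are exact 95% Poisson, take the counted units as independent and cover counting error only.

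Spans came from a RefSeq gene table of Release 6, which gives no strand, start, exon or sequence, so starts, motifs and sequences were not analysed here. All 10 genes matched by symbol. Of the trichome list, 10 of 11 names matched. Python 3.11.15, pandas 2.3.3, NumPy 2.4.6 and SciPy 1.17.1 were used.

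No test was made, since 1 pooled list of 1 group has no replicates. All 10 genes, every other Osiris gene, the genes between them and those next to the stretch are named by rule. The genes and lists were chosen with earlier results of these data known. Alternatives changed the end window, the competing genes, the overlap rule and the peak threshold.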

Additional observations from a re-analysis of the deposited data

How the results depend on the processing

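The count of 40 peaks was 39 when any overlap counted, 40 when ends of all annotated genes competed, and 35 when peaks under 150 bp apart counted once. In a stricter list with the best −log10 q (17359 peaks), 20 of the 40 were left (50.0%, the same as the share of the list kept). Osi7, Osi19 and Osi20 then had 0, 5 of the 10 genes had a summit within 500 bp of an end (52.5% of all genes) and the same 5 at the lower-coordinate end (29.6% of all genes), 3 had one inside (33.2% of all genes), and the median number per gene was 1 in place of 3. The density of the stretch was then 2.03 summits per 10 kb, against 1.25 on 3R, and the median fold enrichment of the genes' peaks was 2.14. At a given pileup the −log10 q falls as the background rises, so this threshold removes peaks of Osi7 with many reads. The number of genes with a summit at either end was 7 within 250 bp (52.2% of all genes) and 10 within 1000 bp (75.9%). At the lower-coordinate end it was 6 (28.7% of all genes) and 10 (54.5%). These settings for the lower-coordinate end were chosen after seeing the data. From Osi2 to Osi20 the density was 5.30. On other scales, the stretch was covered to 24.6%, the median pileup was 182.5 reads, the median of each gene's highest fold enrichment was 2.16, and the median ratio with every background at its floor, a setting also chosen after seeing the data, was 3.15. Windows around annotated starts were not run, since starts and strands were not used here. Leaving out a replicate was not run, because the list is pooled. No paired analysis was possible because there is 1 group and no value per replicate. The depth limits single summits: at 111 reads the counting interval is 91.3 to 134.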

Other observations

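The 3 Osiris genes outside the stretch had peaks as well. Osi22 (3R:13290629–13291846) had a peak of 945 bp whose summit lay 109 bp outside its lower-coordinate end, with 216 reads and a fold enrichment of 2.65, and a weaker one inside at 1.47. Osi23 (3R:30444076–30445046), the gene needed for olfactory pores, had a single peak inside, with 100 reads and a fold enrichment of 1.74. Osi21 (2L:11284327–11285706) had 9 peaks, all beyond its higher-coordinate end, spread from 184 to 27702 bp out. The highest of these had a fold enrichment of 2.84 with 164 reads, 5928 bp out.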
